A study of Mus musculus with 6 samples.

Results

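The Cd44 locus, as described here, is the set of CTBP2 binding sites on mouse chromosome 2 whose centre lies between 102.55 and 102.84 Mb, a window of 290 kb around the gene Cd44 at 102.64 to 102.73 Mb (GRCm39). It held 48 of the 62236 sites in the deposited table. The window was fixed by position, but Cd44 was picked with its response to LPS already known, so its differences between LPS and vehicle are given as a description and support nothing by themselves. The signal comes from ChIP-seq, in which an antibody against CTBP2 pulls down the DNA it is fixed to, in mouse macrophages cultured from bone marrow. The LPS group had 3 libraries, made after 3 h with lipopolysaccharide (LPS, from the outer wall of bacteria) at 100 ng/ml, and the vehicle group had 3, made after 3 h with PBS. In both groups the cells came from wildtype male C57BL6/N mice aged 6 to 12 weeks, were differentiated for 6 days in medium with L929 cell supernatant, and were fixed with DSG and formaldehyde. The labels number the replicates but name no separate animals or cultures for them, so every error and p-value here reflects variation from library to library that may be technical. No input library was analysed here. The table holds no expression, and the labelled cell type was not checked against markers.

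CD44 is a cell surface glycoprotein and the main receptor for hyaluronan, a long sugar polymer of the extracellular matrix. On macrophages it takes part in adhesion, migration and the handling of hyaluronan fragments, and its RNA is spliced with a variable set of exons. CTBP2 does not bind DNA by itself. It is a co-repressor that DNA-binding factors such as ZEB1 and ZEB2 recruit, and it brings histone-modifying enzymes to the site.

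Values are the deposited signal per site, with each library divided by its own median over all sites and brought to a common level; the median site of the table had a mean of 46.4 in LPS and 46.5 in vehicle. The deposited medians were 37.1, 48.8 and 61.0 in LPS replicates 1, 2 and 3, and 35.5, 37.3 and 73.0 in vehicle replicates 1, 2 and 3. Low values moved in even steps, and taking 1 step as 1 read gives 3243258 to 4553177 reads in sites per library and a median site of 39 to 55 reads. At that depth the weakest sites rest on few reads. Folds are LPS over vehicle on the scale of log2(value + 1), which understates changes at weak sites. A site is called when its limma p, adjusted over all 62236 sites, is under 0.05.

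Gene starts were placed among the sites through a shift of 170 kb, because the gene table is on another build (GRCm38.p6) than the sites. Within 5 Mb of Cd44, 26 of 51 gene starts on this shift had a site within 500 bp, and 3 had one without it; the shift was measured on these same starts. The table itself, whose gene columns follow the older build, names Cd44 for 37 of the 48 sites and Trim44 for 11. At the measured shift 20 sites lay within Cd44, the start site included, 14 lay upstream and 14 lay past its end. Cd44 runs on the minus strand, so upstream is toward higher coordinates. Of the sites past its end, 11 lay within the neighbouring gene Slc1a2, which encodes a glutamate transporter best known from astrocytes, and 3 lay between the genes. These 11 are the sites that the table names Trim44.

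The promoter is shown because the site with the second-highest level in LPS lay at the start of Cd44. Its centre was 0.363 kb past the placed start, and a placement good to about 500 bp does not say which of these bases it covers. The 250 bases before the start lie on the minus strand at chr2:102901666-102901915 of GRCm38.p6 and are credited to RefSeq. They read as follows, with the matches to GAGGAA, a form of the ETS core, in capitals.
Cd44 promoter: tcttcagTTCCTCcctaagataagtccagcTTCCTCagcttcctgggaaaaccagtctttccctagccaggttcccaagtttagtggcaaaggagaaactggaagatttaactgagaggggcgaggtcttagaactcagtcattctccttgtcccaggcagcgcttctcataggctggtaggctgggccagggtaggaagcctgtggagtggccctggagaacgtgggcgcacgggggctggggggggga
Both strands were searched. GAGGAA, a form of the ETS core that PU.1 and related factors recognise, matched at 243 and 220 bases before the start. It occurred in 23.3% of 32851 promoter windows of this length. Shorter or other forms of the ETS core were not searched and are not marked. No match was found for the kappaB motif of NF-kB (in 7.25% of windows), AP-1 as TGANTCA (6.75%), the interferon-type element GAAANNGAAA (2.98%), C/EBP as TTNCNNAA (36.8%), STAT as TTCNNNGAA (7.02%) or the E2-box CAGGTG that ZEB proteins bind (17.2%). The ETS matches do not overlap each other. GC content was 56.4%, against a median of 52.4% over all windows.

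CTBP2 sites were dense around Cd44. Neighbouring centres were 1.07 to 38.5 kb apart with a median of 4.11 kb, and the 48 sites compare with a median of 9 in the 5355 windows of 290 kb that held any site. The 48 include sites weak in vehicle, so this density may depend on the contrast on which Cd44 was picked. Of the 48, 45 had the same width and 3 were wider, the widest at 1991 bp. The longest gap lay upstream of the gene, between the sites 4.12 and 42.7 kb from its start.

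In LPS, 23 of the 48 sites were called higher and 1 was called lower, where 16.1% and 13.5% of all sites were called. Since the locus was picked on this contrast, nothing is read from that difference. The median log2 fold was 0.55 over the 48 sites and -0.02 over all sites. The fold was at least 2 at 12 of the sites called higher, and 38 of the 48 sites had a positive log2 fold. At 27 sites the lowest LPS library exceeded the highest vehicle library, and at 4 the highest LPS library fell short of the lowest vehicle library, where 21.6% and 20.6% of all sites did so. On the deposited values without scaling, 5 sites were higher and 0 lower (0 also at an unadjusted p under 0.05), beside 1.89% and 0.0482% of all sites. These 5 were the sites 136, 144, 156 and 179 kb past the start and that 57.9 kb upstream. In the authors' deposited table, of the 48 sites, 9 were higher at an FDR under 0.05 (4.01% of all sites) and 0 were lower (0.370% of all sites, and 0 of the 48 at a deposited p under 0.05). All of these 9 were also called higher here. The deposited log2 folds are another estimate than those given here and were mostly smaller in size. At the site 177 kb past the start, for example, the deposited log2 fold was 0.12, that here 0.58 and that on unscaled values 0.64. At the site 144 kb past the start, which had a far smaller deposited p, they were 2.34, 2.68 and 2.74. A small deposited log2 fold therefore does not mean that the deposited signals of the groups were alike.

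**Figure D1:**
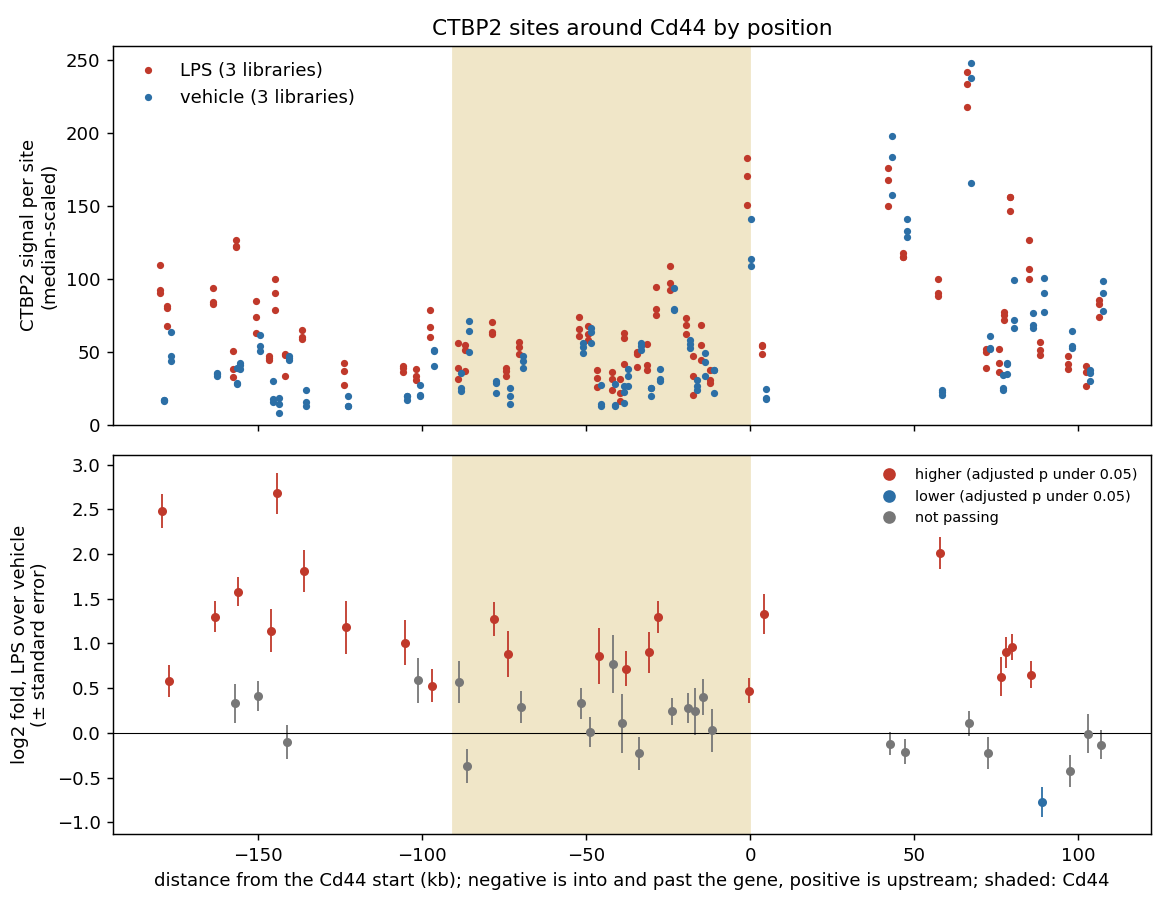
Top: median-scaled CTBP2 signal of the 48 sites, 1 point per library, against the distance from the Cd44 start in kb (LPS red, vehicle blue, drawn slightly apart). Bottom: log2 fold of LPS over vehicle with its standard error. The shaded span is Cd44, and the highest log2 folds, 2.68 and 2.48, lie past its end at 144 and 179 kb from its start.

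The summed signal of the locus made up more of each LPS library than of any vehicle library. It was 0.0817%, 0.0839% and 0.0925% of all site signal in LPS replicates 1, 2 and 3, against 0.0649%, 0.0632% and 0.0601% in vehicle replicates 1, 2 and 3. The groups did not overlap, and the ratio of their means was 1.37. A share of a library does not depend on how libraries are scaled. The ratio was not the same along the locus. Over Slc1a2 the share was 0.0198% ± 0.00134 in LPS and 0.00896% ± 0.000296 in vehicle (SD, n = 3 each), a ratio of 2.21. Inside Cd44 it was 0.0251% ± 0.00244 in LPS and 0.0192% ± 0.000806 in vehicle (SD, n = 3 each), a ratio of 1.31. Upstream it was 0.0332% ± 0.00134 in LPS and 0.0291% ± 0.00206 in vehicle (SD, n = 3 each), a ratio of 1.14. The difference between these stretches was not tested.

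**Figure D2:**
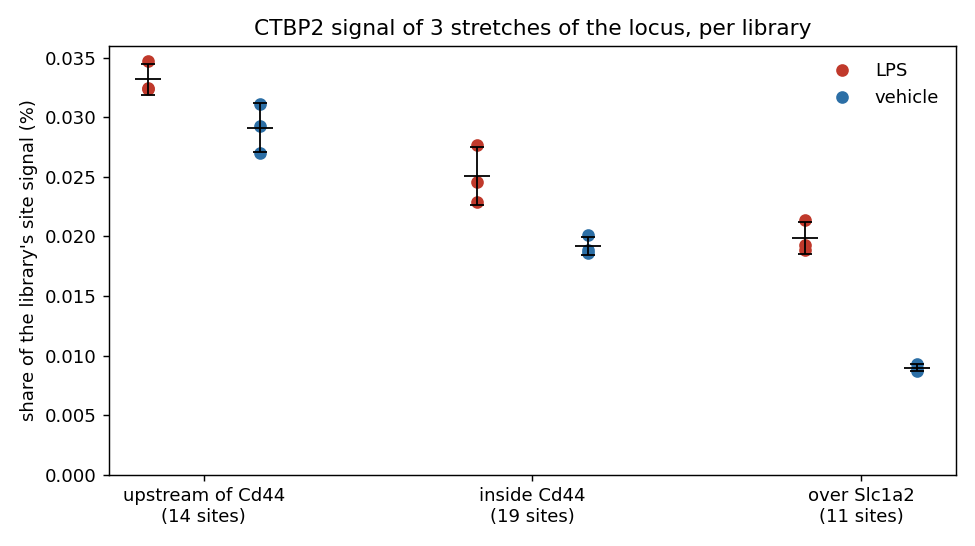
Share of each library's site signal, in percent, held by the sites upstream of Cd44, inside it and over Slc1a2. Points are libraries, and the black marks are means with SD (n = 3). Over Slc1a2 the LPS libraries lie between 0.0189% and 0.0214% and the vehicle libraries between 0.00869% and 0.00928%.

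The site at the start of Cd44 (chr2:102731052-102732052) was strongly bound in both groups. Its values were 171, 151 and 183 in LPS replicates 1, 2 and 3, against 114, 109 and 141 in vehicle replicates 1, 2 and 3. The groups did not overlap, but the lowest LPS library came close to the highest vehicle library. The log2 fold was 0.47 (SE 0.14), a 1.39-fold difference. Its call as higher was lost without LPS replicate 3, vehicle replicate 1 or vehicle replicate 2, where the log2 fold was 0.41, 0.44 and 0.40. The site also did not pass on unscaled values (log2 fold 0.54). In the authors' deposited table its log2 fold was 0.09, with an FDR of 0.780, although the deposited signals themselves give the 0.54 above. The vehicle level of this site stood at the 91.7th percentile of all sites. Right beside it, 4.12 kb upstream, a site that was weak in vehicle (chr2:102735537-102736537, the 5.64th percentile) had 54.6, 53.8 and 48.7 in LPS, against 18.3, 24.7 and 18.0 in vehicle. That site was 2.52-fold higher and kept its call without each single library, but not on unscaled values, where its log2 fold was 1.39.

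Upstream of the gene, 6 of 14 sites were called higher and 1 lower, beside 16.1% and 13.5% of all sites. A positive log2 fold was found at 7 of the 14, and the median log2 fold was 0.05. The sites strongest in vehicle differed little between the groups, while gains lay at some of the others. The strongest site of the locus lay 66.6 kb upstream (chr2:102797980-102798980), with 242, 218 and 234 in LPS against 248, 238 and 166 in vehicle. The groups overlapped, and the low value of vehicle replicate 3 set the sign of its log2 fold of 0.11 (SE 0.14), which was -0.07 without that library. The strong sites 42.7 and 47.1 kb upstream lay within the long non-coding RNA gene Gm34483. The first (chr2:102774080-102775080) had 168, 150 and 176 in LPS against 198, 158 and 184 in vehicle, and the groups overlapped. The other (chr2:102778527-102779527) had 118, 115 and 115 in LPS against 141, 133 and 129 in vehicle, with all LPS libraries below, and its log2 fold of -0.21 (SE 0.14) did not pass.

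The largest gain upstream came 57.9 kb from the start, also within Gm34483 (chr2:102789271-102790271). This site had 88.4, 90.5 and 100 in LPS, against 20.6, 22.2 and 24.1 in vehicle. The groups were far apart, and the log2 fold was 2.01 (SE 0.18), a 4.04-fold gain. In vehicle it stood at the 7.98th percentile of all sites and in LPS at the 83.2nd. In the authors' deposited table its log2 fold was 1.66.

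A run of 4 sites between 76.5 and 85.6 kb upstream was higher as well, with folds of 1.55, 1.87, 1.94 and 1.57 in order of distance. None of these 4 passed on unscaled values or at the FDR threshold in the authors' deposited table. The strongest of them, 79.9 kb upstream (chr2:102811279-102812279), had 156, 147 and 156 in LPS against 99.6, 66.6 and 72.2 in vehicle. The weakest, 76.5 kb upstream, lost its call without LPS replicate 2 or 3 or vehicle replicate 1 or 3, with log2 folds from 0.50 upward. The next site along the chromosome was the only one of the 48 called lower. It lay 89.0 kb upstream (chr2:102820459-102821459) and had 48.0, 51.2 and 56.9 in LPS, against 101, 77.6 and 90.2 in vehicle. Its log2 fold was -0.77 (SE 0.17), a level 0.588 times that in vehicle, and the call held without each single library but not on unscaled values. The site 97.3 kb upstream had 38.2, 46.9 and 41.5 in LPS against 64.1, 52.9 and 54.1 in vehicle, and its log2 fold of -0.43 did not pass.

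**Figure D3:**
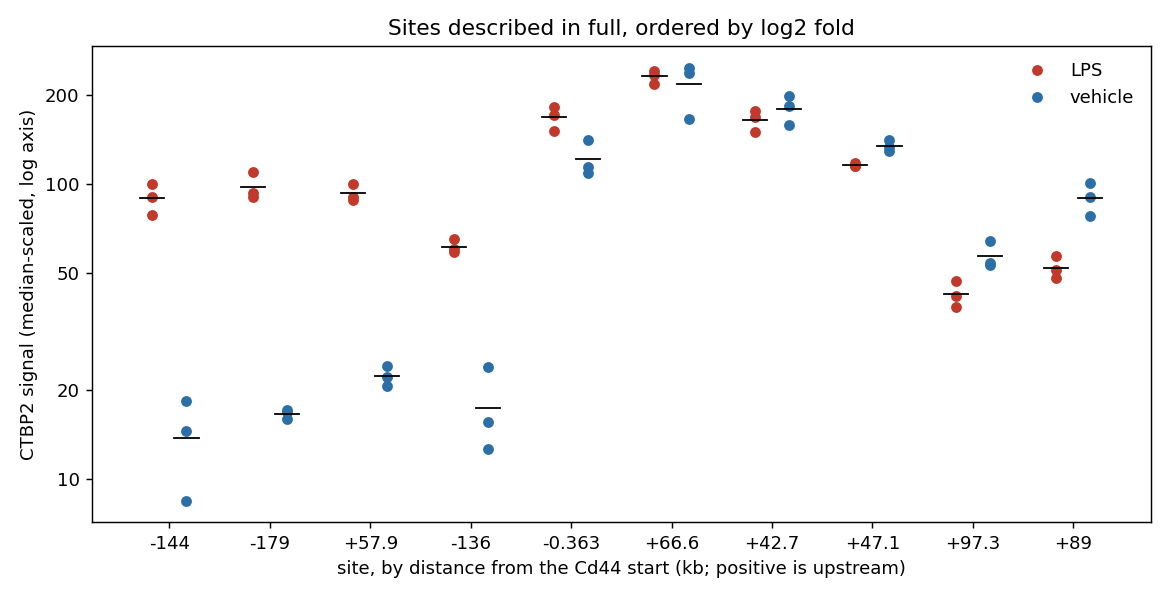
Median-scaled CTBP2 signal (log axis) of 10 sites, by distance from the Cd44 start in kb, ordered by log2 fold from left to right. These are the site at the gene start and those with the highest level or the most positive or most negative log2 fold. Points are libraries and bars are means of 3. The 4 sites on the left have vehicle means of 13.7 to 22.3 and LPS means of 61.3 to 97.8, while the strong sites 42.7, 47.1 and 66.6 kb upstream differ little.

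Inside Cd44, behind its start, 6 of 19 sites were called higher and none lower, beside 16.1% and 13.5% of all sites. A positive log2 fold was found at 17 of the 19, and at 30190 of all 62236 sites. Since the locus was picked on this contrast, nothing is read from these counts. The median log2 fold was 0.33. The 2 largest gains within the gene were alike in size and lay far apart. One was 27.9 kb past the start (chr2:102703525-102704525), with 79.7, 75.1 and 94.8 in LPS against 29.8, 31.6 and 38.5 in vehicle, a 2.46-fold gain. The other was 78.1 kb past the start (chr2:102653314-102654314), with 62.2, 64.0 and 70.4 in LPS against 28.6, 29.9 and 21.7 in vehicle, a 2.42-fold gain. Groups were well apart at both.

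The other 4 sites called higher inside the gene, 30.7, 37.9, 45.9 and 73.6 kb past the start, had folds of 1.65 to 1.86. That at 45.9 kb had overlapping groups, and its call was lost without LPS replicate 2 or 3 or vehicle replicate 1 or 3 (log2 fold 0.65 to 1.18 without 1 library). The strongest site behind the start, 23.8 kb past it (chr2:102707570-102708570), had 97.2, 92.2 and 109 in LPS against 93.9, 78.5 and 79.4 in vehicle. Its groups overlapped and its 1.18-fold difference did not pass. The 13 sites inside the gene that did not pass had log2 folds from -0.37 to 0.77.

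Past the end of Cd44, 8 of the 11 sites over Slc1a2 were called higher and none lower, beside 16.1% and 13.5% of all sites. Nothing is read from these counts either. These sites held the largest gains of the locus, with a median log2 fold of 1.18. The largest was 144 kb from the Cd44 start (chr2:102587505-102588505), with 78.6, 90.5 and 100 in LPS against 18.3, 14.5 and 8.43 in vehicle. The log2 fold was 2.68 (SE 0.23), a 6.39-fold gain from a vehicle level at the 0.627th percentile of all sites, and it was 5.20 to 7.50-fold without 1 library. The authors' deposited table gives this site a log2 fold of 2.34. Which libraries each site was found in is not stated. Sites weak in vehicle may be listed only because of their LPS signal, which would fix a part of such gains in advance. Next came the site 179 kb from the start (chr2:102552566-102553566), with 92.8, 90.5 and 110 in LPS against 16.0, 17.1 and 16.8 in vehicle. Its log2 fold was 2.48 (SE 0.19), or 5.58-fold, and the vehicle libraries differed little among themselves.

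A neighbour of that site, 177 kb from the start and bound more strongly in vehicle, had 67.7, 80.2 and 81.2 in LPS against 46.9, 43.5 and 63.8 in vehicle. It was 1.49-fold higher and lost its call without LPS replicate 2 or 3 or vehicle replicate 1 or 2, with log2 folds of 0.47 to 0.74 without 1 library. The site 136 kb from the start (chr2:102594946-102595946) had 60.0, 58.9 and 65.0 in LPS against 12.6, 23.9 and 15.6 in vehicle, a log2 fold of 1.81 (SE 0.23). The highest LPS level past the gene was 156 kb from the start (chr2:102575683-102576683), within the long non-coding RNA gene Gm13872, with 127, 123 and 122 in LPS against 41.2, 42.7 and 38.5 in vehicle. This was a 2.99-fold gain with groups far apart.

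Of the 3 sites between the genes, that 105 kb from the Cd44 start was 2.02-fold higher, at 36.0, 39.3 and 40.6 in LPS against 19.5, 19.6 and 16.8 in vehicle. The widest site of the locus, 96.8 kb from the start, was 1.44-fold higher and lost its call without LPS replicate 2 or 3 or vehicle replicate 2 (log2 fold 0.41 to 0.62 without 1 library). Over the locus, 18 of the 23 calls as higher held without each single library.

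The order of levels differed between the groups. In LPS the strongest sites were those 66.6 kb upstream (231 ± 12.6), at the start (169 ± 16.3), 42.7 kb upstream (165 ± 13.2), 79.9 kb upstream (153 ± 5.39) and 156 kb past the start (124 ± 2.52), as mean ± SD of 3 libraries. The second and the third of these differed by less than their spread, as did the third and the fourth. In vehicle the order was 66.6 kb upstream (218 ± 44.9), 42.7 kb upstream (180 ± 20.4), 47.1 kb upstream (134 ± 6.10), the start (121 ± 16.9) and 89.0 kb upstream (89.5 ± 11.6). There the first and the second, and the third and the fourth, differed by less than their spread. The fifth likewise could not be told from the sites 107 kb upstream (89.0 ± 10.5), 23.8 kb past the start (83.9 ± 8.62) and 79.9 kb upstream (79.4 ± 17.7). The 23 sites called higher had a median of 68.7 in LPS and 26.7 in vehicle, and the 24 that did not pass had 47.5 in LPS and 53.5 in vehicle. A part of that contrast is built in, since the calls were made on the same values. The sites just beyond the window had log2 folds of 0.56 (183 kb past the start) and -0.03 (112 kb upstream), against 2.48 and -0.13 for the members just inside it.

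The 38 members not described in full comprised 18 called higher and 20 that did not pass. Their log2 folds ran from -0.37 to 1.58, with means from 23.2 to 153 in LPS and from 15.2 to 89.0 in vehicle.

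Among 12121 other genes with at least 5 sites within 100 kb of their start, those whose sites moved most like those of Cd44 were Tgtp1 and Olfr1389 on chromosome 11, Oasl1 on chromosome 5, and Etv6 and Gm46977 on chromosome 6. Likeness was the root mean square difference, over the 6 libraries, of the mean log2 value of a gene's sites after its vehicle mean was taken off. It was 0.0146 to 0.0257 for these genes. The 33 sites within 100 kb of the Cd44 start stood at 0.34, 0.43 and 0.54 in LPS replicates 1, 2 and 3, against -0.01, 0.06 and -0.05 in vehicle replicates 1, 2 and 3. Those of Tgtp1, an interferon-induced GTPase gene, stood at 0.33, 0.43 and 0.53 in LPS, against -0.01, 0.04 and -0.03 in vehicle. Etv6 and Gm46977 had the same values to 2 decimals, as genes whose windows share sites do. The mean LPS value of Cd44, 0.44, lay above that of 91.7% of the genes, so a shift of this size was not rare.

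A list of 41 other genes of CD44 and hyaluronan biology was examined in the same fit, each site being given to the nearest placed gene start within 100 kb. Of these genes 24 had such a site. Their 143 sites held 41 called higher, 20 called lower and 82 that did not pass, with a median log2 fold of 0.22. Over all sites within 100 kb of a placed start, 15.8% were higher and 12.5% lower, with a median of -0.01. On unscaled values 10 of the 143 were higher and 0 lower (5 lower at an unadjusted p under 0.05), where that fit called 1.89% of all sites higher and 0.0482% lower.

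Among enzymes and ligands, Has1, a hyaluronan synthase gene, had 2 of 3 sites higher. Its strongest change lay 7.66 kb from the start, with 213, 204 and 168 in LPS against 32.0, 13.6 and 24.1 in vehicle, and the groups were far apart (log2 fold 3.08, SE 0.22, limma adjusted p = 1.03e-09). The other, 2.72 kb from the start, had overlapping groups and lost its call without LPS replicate 3 or vehicle replicate 2. That site did not pass on unscaled values (log2 fold 1.10). Cemip, whose product takes part in hyaluronan breakdown, had 2 of 4 sites higher and 1 lower. Hyal1, a hyaluronidase gene, had 1 of 2 sites lower and none higher. That call was lost without LPS replicate 2 or 3 or vehicle replicate 1 or 2. Neither of the 2 sites of Hyal2, another such gene, passed. Lgals9, which encodes the CD44 ligand galectin-9, had 7 of 13 sites higher, with up to 3.96-fold at 34.1 kb from the start. Its call at the start was lost without LPS replicate 3 or vehicle replicate 2. Spp1, which encodes the ligand osteopontin, had 3 of 9 sites higher, and its site at the start did not pass (log2 fold 0.02, SE 0.14). Vcan, which encodes the hyaluronan-binding proteoglycan versican, had 3 of 7 sites higher. Of other genes for hyaluronan-binding proteins, Itih1 had its only site higher, while no site of Itih3 or Itih5 was called. Tnfaip6, which encodes a hyaluronan-binding protein of inflamed tissue, rose 1.49-fold at its start and lost that call without LPS replicate 3 (log2 fold 0.52 to 0.67 without 1 library).

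Partners and proteases of CD44 had several higher sites. Slc7a11, which encodes the cystine transporter that a CD44 splice form stabilises, had 5 of 10 sites higher. Its start site had 281, 237 and 254 in LPS against 68.7, 81.1 and 69.8 in vehicle, and the groups did not come near each other (log2 fold 1.80, SE 0.14, limma adjusted p = 7.95e-12). Met, a receptor tyrosine kinase gene whose product works with CD44 splice forms, had 6 of 7 sites higher. Mmp14, which encodes a membrane protease that cuts CD44, had both of its 2 sites higher, with 133, 128 and 153 in LPS against 73.3, 91.3 and 68.6 in vehicle at the one nearer its start (log2 fold 0.83, SE 0.15, limma adjusted p = 7.74e-05). Adam10, which encodes a CD44 sheddase, had 2 of 8 sites higher, and Adam17 had 0 of 2.

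Lower sites lay mainly at other members. Ezr, which encodes the cytoskeletal linker ezrin, had 9 of 14 sites lower and 1 higher, and the higher one was that at its start (log2 fold 0.64). The call at the start was lost without LPS replicate 2 or vehicle replicate 2, with log2 folds of 0.56 to 0.76 without 1 library. Its largest change was at 58.1 kb from the start, with 51.3, 52.9 and 49.6 in LPS against 97.3, 99.8 and 134 in vehicle (log2 fold -1.07, SE 0.16, limma adjusted p = 5.52e-06). Of the other linker genes, Rdx had 1 of 5, Msn 1 of 15 and Nf2 1 of 7 sites lower, and none of them had a higher one. Since 12.5% of all sites within 100 kb of a placed start were lower, nothing is read from these linker counts. Stab1, which encodes the scavenger receptor stabilin-1, had 4 of 6 sites lower and none higher. Its site nearest the start had 194, 142 and 133 in LPS against 278, 250 and 251 in vehicle, without overlap (log2 fold -0.75, SE 0.14, limma adjusted p = 8.56e-05). Tlr2, a receptor gene of innate immunity, had 6 of 17 sites higher and 1 lower. Its call as higher at the start was lost without LPS replicate 2 or vehicle replicate 1 or 2. The receptor gene Stab2 had 1 of 2 sites lower and none higher, and the only site of Hmmr did not pass. On unscaled values the folds moved little but many calls ended. The log2 folds were then 0.89 for Mmp14 at the site nearer its start, 0.64 for Tnfaip6 at its start, -1.01 for Ezr at 58.1 kb, 0.70 for Ezr at its start and -0.69 for Stab1 at the site nearest its start, none of which passed. The calls for Has1 at 7.66 kb, Lgals9 at 34.1 kb and the start of Slc7a11 held.

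**Figure D4:**
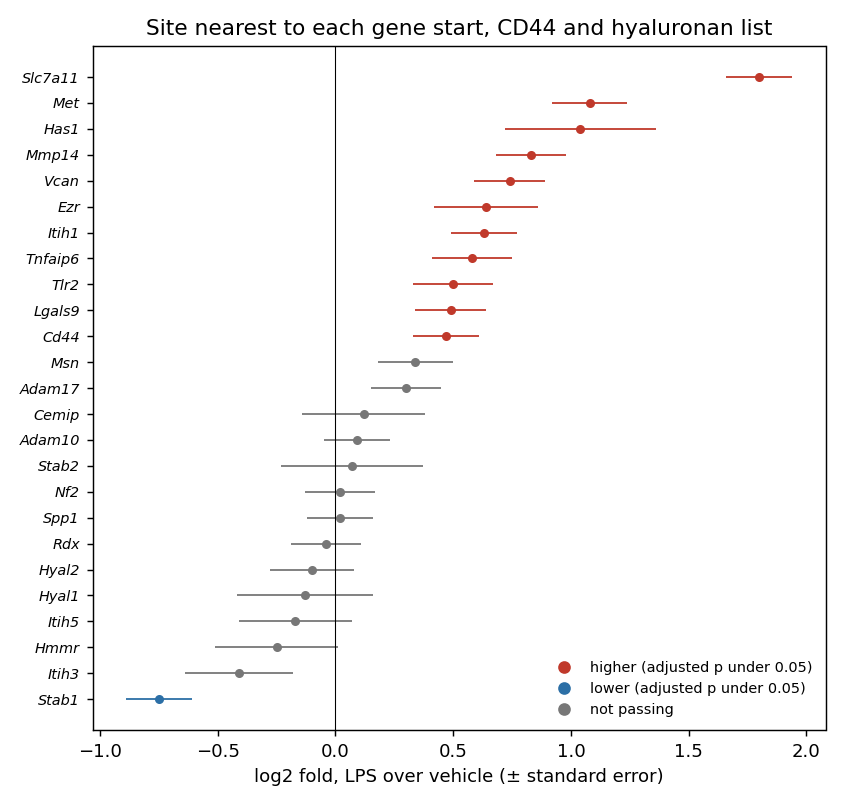
Log2 fold of LPS over vehicle with its standard error (n = 3 libraries per group) at the site nearest to the start of each gene of the list that had a site within 100 kb, Cd44 included. Red sites were called higher, blue lower. Slc7a11 has the highest value, 1.80, and Stab1 the lowest, -0.75, with Cd44 at 0.47.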

How the data were processed

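CTBP2 immunoprecipitation signal was measured in 3 LPS and 3 vehicle libraries. The deposited table gives a normalised signal per site and library; at low levels its values step evenly, as reads times 1 factor per library would, and the origin of that factor is not stated. The authors also deposited log2 concentrations, a log2 fold, and p-values with an FDR. Per the submitters' processing notes, BWA 0.7.17, MACS3 3.0.0a5 and DiffBind 3.16 were among the tools, with the builds mm39, GRCm39 and mm10 named without a role; pooling before peak calling is not stated.

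Here each library was divided by its median, and log2(value + 1) was fitted with limma (version 3.58.1, under R 4.3.3; 6 libraries, no covariates, with the trend and robust options) over all 62236 sites, with Benjamini-Hochberg adjustment. The members and lists were chosen with earlier results of these data known. Values are given in full for the site at the gene start, the 4 strongest, the 4 most positive and the 2 most negative by log2 fold, with further sites and the genes named from the list chosen after their values were seen. RefSeq gene starts were placed by a shift searched up to 1 Mb in steps of 250 bp, with a change penalty of 12 along each chromosome. With every other start left out, 42.5% of 10517 such starts had a site within 500 bp at the shift, and 5.50% without it. Some genes have several starts, so a left-out start may lie beside a used start of its own gene, and the check is not fully independent. Exons were not analysed here. Alternatives covered scaling, pseudocount, a filter on weak sites, limma options, the replicate block, single libraries and a narrower window.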

Additional observations from a re-analysis of the deposited data

How the results depend on the processing

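Without scaling, 5 sites were called higher and 0 lower, and the start site did not pass (log2 fold 0.54); it also did not pass without limma's trend and robust options (0.47). Without 1 library, 18 to 25 sites were higher and 1 lower, with a median log2 fold of 0.42 to 0.61, a start site at 0.40 to 0.58 and a ratio of signal shares of 1.32 to 1.41. Within the Cd44 span alone, which leaves out the start site, 6 sites were higher and 0 lower, with a median of 0.33. At the site 66.6 kb upstream the log2 fold was -0.07 to 0.22 without 1 library, the negative value being that without vehicle replicate 3. Replicate numbers shared no stated batch, and deviations of same-numbered libraries correlated at 0.11, 0.04 and 0.21, so the numbers were not taken as pairs; with the replicate block 26 sites were higher and 2 lower. Of 117 values over the other 9 sites described in full and 13 alternatives, 114 kept their direction and side of the threshold, 1 lost its call, 1 gained one and 1 changed sign. Scaling by totals, quantile normalisation, a pseudocount of 5 and a filter at a mean of 20 left the counts within 1.5 times. Of values up to 300 steps, 100.0% in each library lay within 0.1 of a whole step, but the values were kept as normalised signal and the count model listed as an alternative was not run. Depth limits the weakest sites, and 3 libraries a group limit every call.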
